A study of Mus musculus with 9 samples.

Results

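Excitation-contraction coupling is the step by which an action potential on a muscle fibre releases calcium from its internal store. The genes described here are 32 genes of that step and of calcium handling, out of 56805 genes in the table. They were chosen by name for 8 roles: the voltage sensor and release channel, the structure of the triad, the calcium pumps and their regulators, storage proteins, calcium-binding proteins of the cytosol, store-operated entry, the IP3 receptor with the mitochondrial channel, and the channels that set excitability. All 32 were found, and 31 passed the filter on low values, which asked for a normalized count of 10 in at least 3 libraries. The exception was Ryr3.

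The RNA came from the left tibialis anterior, a fast muscle of the lower hind limb, of male mice aged 13 months. There were 3 mice labelled Svil-KO, 3 labelled Svil-Mut and 3 wild-type (WT) mice, with 1 library per mouse. Svil encodes supervillin, a membrane-associated protein that binds actin and myosin II. The labels describe neither Svil allele, name no promoter or Cre line, and give no treatment.

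At the triad, a transverse tubule of the surface membrane lies against the terminal cisternae of the sarcoplasmic reticulum. The voltage sensor, an L-type calcium channel in the tubule, opens the ryanodine receptor in the reticulum, and calcium leaves the store. SERCA pumps return it, calsequestrin holds it inside the reticulum, and parvalbumin buffers it in the cytosol of fast fibres. Fast and slow fibres use different isoforms of the pump and of calsequestrin.

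Svil itself was measured at normalized counts of 7402, 6746 and 6656 in Svil-KO, 4615, 3939 and 4582 in Svil-Mut, and 8686, 9373 and 8407 in WT. Both labelled genotypes thus lay below WT in every library, and the libraries labelled Svil-KO kept the higher level. The counts cover the whole gene and do not show which transcripts remain. By limma on log2 values, the log2 fold change of Svil in Svil-Mut against WT was -1.01 (adjusted p = 0.000941), and its difference between Svil-KO and WT, -0.35, did not pass (adjusted p = 0.997).

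Libraries held 36234428 to 48762188 reads and 19282 to 19988 detected genes. Markers of fast fibres were abundant in all of them, with a summed normalized count of 4254846 to 4887697 in Svil-KO, 4639096 to 5382255 in Svil-Mut and 4274171 to 4589157 in WT. Every Svil-Mut sum lay above every WT sum, but the markers differed in direction. Their limma log2 fold changes in Svil-Mut against WT were 0.42 (Actn3), 0.25 (Myh4), 0.16 (Tnnt3), 0.09 (Tnni2), 0.04 (Tnnc2) and 0.03 (Mylpf). Those of Myl1 and Myh1 were -0.16 and -0.73. Slow fibre markers were highest in Svil-KO replicate 1 and lowest in Svil-Mut replicate 2, and red blood cell markers summed to 2627 to 6208 in Svil-KO, 6545 to 49200 in Svil-Mut and 4413 to 8134 in WT. Myh2, the myosin of type 2A fibres, was 42185, 26347 and 34600 in Svil-KO, 15669, 3474 and 21748 in Svil-Mut, and 39184, 31100 and 44893 in WT, so all Svil-Mut libraries lay below all others (limma log2 fold change -1.84 against WT, adjusted p = 0.325). The 4 adipocyte markers summed to 47.9 to 204 in Svil-KO, 10.5 to 210 in Svil-Mut and 189 to 435 in WT. Of the 4 cardiac markers, Nppa stayed at or below 2.84 and Tnni3 at or below 16.7 in all libraries, while Myh6 (78.3 to 353) and Tnnt2 (98.3 to 234) were detected in each. None of the markers passed in any comparison. The part of the fast fibre, 2A fibre, blood and adipocyte markers in the values below was not tested.

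Promoter sequence is shown for the main fast-fibre pump, the main release channel and both calsequestrins, the members on which the level and isoform results turn. Each is the stretch of 200 bases that ends 51 bases before the annotated start of the gene, from RefSeq on GRCm38.p6, written 5′ to 3′ on the strand of the gene, with E-boxes (CANNTG, the core bound by MyoD-type factors) in capitals.
Atp2a1, chr7:126463124-126463323, minus strand: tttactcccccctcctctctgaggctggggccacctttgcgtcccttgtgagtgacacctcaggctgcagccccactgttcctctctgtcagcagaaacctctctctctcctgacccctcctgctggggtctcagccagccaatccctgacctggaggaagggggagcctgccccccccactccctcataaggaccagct
Ryr1, chr7:29125202-29125401, minus strand: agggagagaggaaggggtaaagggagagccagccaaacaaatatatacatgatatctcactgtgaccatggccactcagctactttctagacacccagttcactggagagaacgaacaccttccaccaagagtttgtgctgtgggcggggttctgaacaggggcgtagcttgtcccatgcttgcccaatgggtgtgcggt
Casq1, chr1:172219946-172220145, minus strand: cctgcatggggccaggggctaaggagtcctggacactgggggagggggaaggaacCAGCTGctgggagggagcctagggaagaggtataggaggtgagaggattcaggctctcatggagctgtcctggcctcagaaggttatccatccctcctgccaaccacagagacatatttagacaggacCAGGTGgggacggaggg
Casq2, chr3:102086165-102086364, plus strand: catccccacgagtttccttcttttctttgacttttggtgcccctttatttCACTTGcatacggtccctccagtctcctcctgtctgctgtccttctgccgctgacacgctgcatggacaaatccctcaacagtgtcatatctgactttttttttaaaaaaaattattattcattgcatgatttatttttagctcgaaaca
The Casq1 window holds 2 E-boxes, 1 of them CAGCTG, the Casq2 window holds 1, and the other two windows hold none. RefSeq entries were matched for 21 of the 32 genes. CANNTG, which reads alike on both strands and includes CAGCTG, occurred in 9 of these 21 windows (42.86%) and in 58.94% of 27025 gene windows of the same length. CAGCTG occurred in 4 of the 21, those of Cacna1s, Casq1, Orai1 and Sypl2 (19.05%, against 10.06% of all windows). CATTCC on either strand, the core of the TEAD site, was in 3 windows (14.29%, against 10.65%). The MEF2 site was searched only as CTA, 4 bases of A or T, then TAG. This form was in none of the 21 windows and in 0.37% of gene windows. Other forms, such as TTATTTTTAG in the Casq2 window, were not counted. A match is a description of letters only.

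The levels of the members spanned several orders of magnitude. Per kilobase of exon, the WT mean was 404034 ± 17423 normalized counts for Atp2a1, which encodes SERCA1, the pump of fast fibres, and 303361 ± 34467 for Pvalb, which encodes parvalbumin (SD, n = 3 each). Together they held 82.1% of the summed per-kilobase level of the members in Svil-KO, 83.3% in Svil-Mut and 82.4% in WT. Casq1, the fast calsequestrin, came next with 56939 ± 6461 in WT, then Tmem38a, a potassium channel of the reticulum that carries countercurrent, with 28412 ± 1582, and Cacng1, the gamma subunit of the voltage sensor, with 10600 ± 1307 (SD, n = 3). Srl, Trdn and Jph2 followed, and down to Jph2 each step between neighbours exceeded the SD of both genes. The next did not: Jph2 (4637 ± 301) and Calm2 (4492 ± 350) differed by less than their SD in WT.

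Genes used mainly in slow fibres, heart or other cells lay in the lower part of the range. The WT mean per kilobase was 944 ± 215 for Casq2, 214 ± 31.2 for Atp2a2, 161 ± 64.1 for Sln, 90.3 ± 9.5 for Itpr1 and 11.6 ± 6.91 for Pln (SD, n = 3 each). Ryr3, a ryanodine receptor that is abundant in neonatal muscle, was listed at 0 in all 3 Svil-KO libraries, at 1.02, 0 and 0.946 normalized counts in Svil-Mut, and at 13.1, 0 and 1.02 in WT. It was not tested, and no fold is given.

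**Figure D1:**
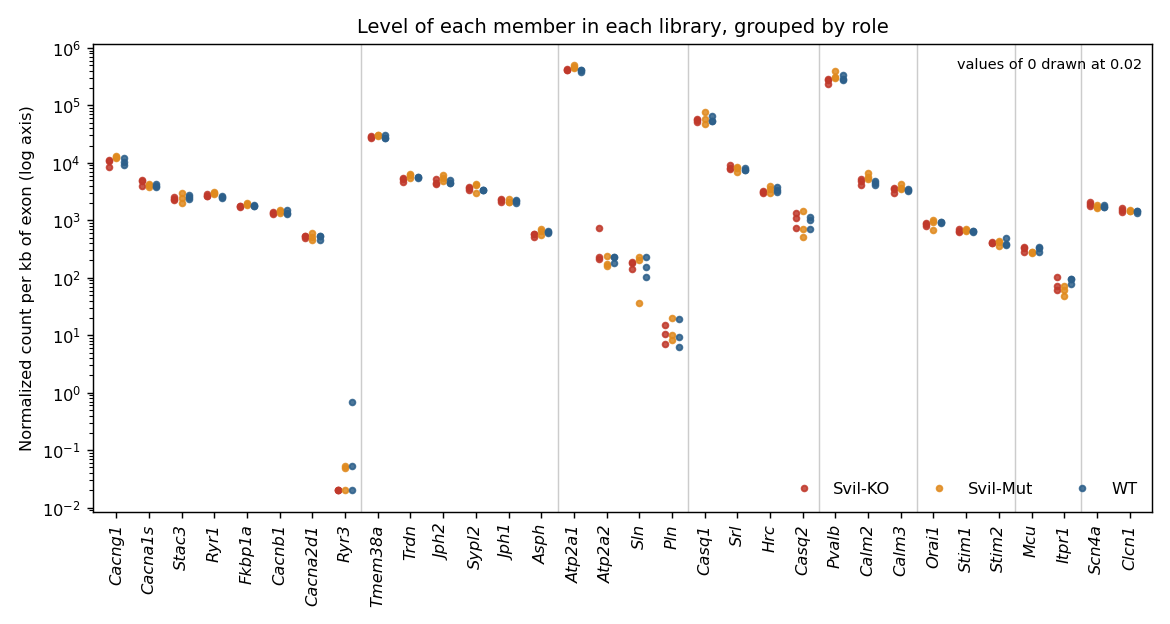
Normalized count per kilobase of exon (log axis) of the 32 members in each of the 9 libraries, grouped by role, with Svil-KO, Svil-Mut and WT points side by side. Atp2a1 and Pvalb lie highest and Ryr3 lowest in every genotype, and Svil-KO replicate 1 stands above the other Atp2a2 points.

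Most members were tightly measured. The median coefficient of variation within a genotype over the tested members was 9.38%, the lowest was 3.86% for Ryr1, and 25 members were under 15%. The 4 most variable were Atp2a2 (65.7%), Pln (50.3%), Sln (44.4%) and Casq2 (37.6%), and none of the other 27 was above 20.4%. These 4 are the slow pump, its small regulators and the slow calsequestrin.

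No member passed at an adjusted p under 0.05 in any comparison by limma, with p-values adjusted over all 15279 genes tested. The share of all genes called was 0% for Svil-KO against WT, 0.0393% for Svil-Mut against WT and 0.0458% for Svil-KO against Svil-Mut, so few calls were made anywhere. At an unadjusted p under 0.05 the members numbered 0 in Svil-KO against WT, where 4.11% of all genes passed. They numbered 5 in Svil-Mut against WT, where 10% of all genes passed, with 4 higher in Svil-Mut (4.71% of all genes) and 1 lower (5.32%). They numbered 5 in Svil-KO against Svil-Mut, where 10.2% of all genes passed, all lower in Svil-KO (4.67% of all genes). On the recovered reads, edgeR's quasi-likelihood test called 0 members in each comparison, with 1, 5 and 7 at an unadjusted p under 0.05 in the same order, and 0%, 0.0393% and 0.0458% of all genes. DESeq2 called 0, 1 and 0 members, with 1, 5 and 8 at an unadjusted p under 0.05, and 0.0262%, 1.13% and 1.39% of all genes. Its single member was Ryr1, in Svil-Mut against WT.

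The median interval of a member's log2 fold change reached 0.225 to either side. The 95% interval lay within 0.5 of 0 for 26 members in Svil-KO against WT, 24 in Svil-Mut against WT and 23 in Svil-KO against Svil-Mut, out of 31 each. The absolute log2 fold change was under 0.25 for 30, 28 and 24 members in the same order. For most members, then, a difference of more than 0.5 on the log2 scale lay outside the interval, while a smaller one could go unseen with 3 mice per genotype. The labels number mice as separate animals. The p-values thus rest on the spread between animals within a genotype, pooled over the 3 genotypes, all handled in 1 batch.

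**Figure D2:**
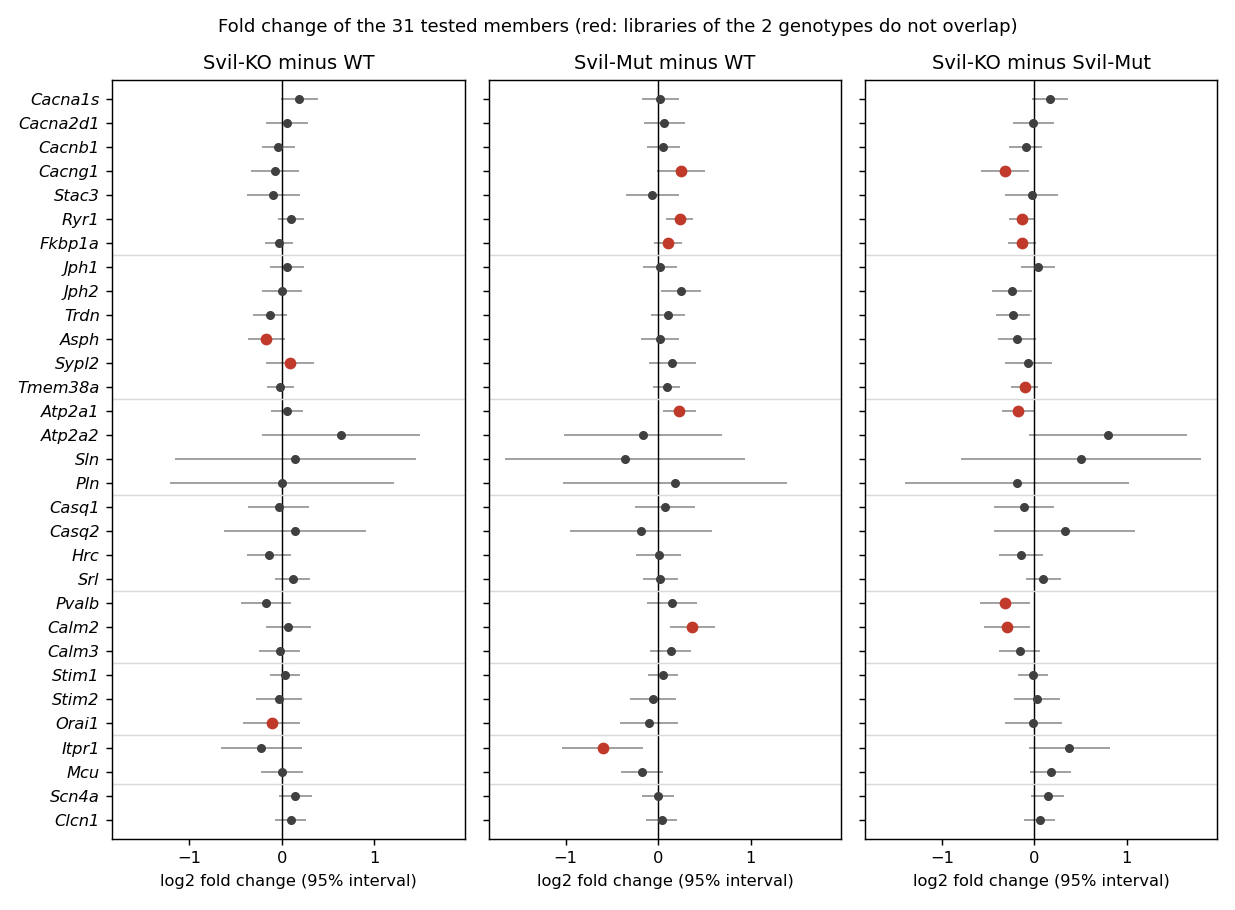
Log2 fold change (dots) with its 95% interval (lines) for the 31 tested members, by role, in Svil-KO minus WT, Svil-Mut minus WT and Svil-KO minus Svil-Mut. Red dots mark members with no overlap of libraries between the pair of genotypes, 3, 6 and 7 in the same order, and the intervals of Atp2a2, Sln, Pln and Casq2 are the widest.

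In the voltage sensor and release channel group, Ryr1 was higher in every Svil-Mut library than in every WT library. Ryr1 encodes the calcium release channel of skeletal muscle (ENSMUSG00000030592.18, chr7:29003344-29125179, minus strand, GENCODE M21 on GRCm38). Its normalized counts were 61984, 58693 and 57170 in Svil-KO, 62062, 67233 and 66086 in Svil-Mut, and 57314, 54693 and 54333 in WT. The means were 59283 ± 2460 in Svil-KO, 65127 ± 2716 in Svil-Mut and 55447 ± 1627 in WT (SD, n = 3 each). Svil-Mut libraries were thus the highest, although the lowest of them exceeded Svil-KO replicate 1 by less than the SD. By limma the log2 fold change in Svil-Mut against WT was 0.23 ± 0.064 (SE), which did not pass (adjusted p = 0.304). DESeq2 gave the same fold change and an adjusted p of 0.0459 in a comparison where it called 1.13% of all genes. Exons of Ryr1 meet those of Gm26604 and Gm44408 on the other strand, and the library kit does not mark strand, so their reads cannot be told apart.

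Cacng1 had 13916, 13475 and 10501 normalized counts in Svil-KO, 15024, 15576 and 16302 in Svil-Mut, and 13167, 14907 and 11644 in WT. The Svil-Mut libraries lay above all others, the closest WT library by a small margin. The limma log2 fold change was 0.25 in Svil-Mut against WT (adjusted p = 0.52) and -0.32 in Svil-KO against Svil-Mut (adjusted p = 0.412). Fkbp1a, which encodes the FKBP12 protein that stabilises the closed ryanodine receptor, had 6763, 6907 and 6561 in Svil-KO, 7410, 7835 and 7005 in Svil-Mut, and 6710, 6992 and 6916 in WT. Here too Svil-Mut lay above the others, by a small margin at the closest point, with a limma log2 fold change of 0.11 against WT (adjusted p = 0.645).

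Cacna1s, the pore and voltage-sensing subunit itself, showed another pattern. It had 32401, 26139 and 31597 normalized counts in Svil-KO, 26868, 27904 and 25166 in Svil-Mut, and 27783, 24874 and 26043 in WT. The highest 2 libraries were Svil-KO, and the remaining Svil-KO library lay within the WT range. Its limma log2 fold change in Svil-KO against WT was 0.19 ± 0.090 (SE), the smallest unadjusted p of the members in that comparison (adjusted p = 0.997). The other subunits, Cacna2d1 and Cacnb1, and Stac3, an adaptor that couples the sensor to the release channel, overlapped between genotypes in all comparisons, with limma log2 fold changes between -0.09 and 0.07.

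Among the proteins that build the triad, all 6 had a positive log2 fold change in Svil-Mut against WT, between 0.02 and 0.25, and all 6 overlapped. Jph2, a junctophilin that ties the tubule to the reticulum, had 18464, 22228 and 18893 normalized counts in Svil-KO, 23638, 25782 and 20905 in Svil-Mut, and 18727, 21172 and 19295 in WT. Its limma log2 fold change was 0.25 ± 0.098 (SE) in Svil-Mut against WT (adjusted p = 0.44) and -0.24 in Svil-KO against Svil-Mut (adjusted p = 0.459). The other junctophilin, Jph1, varied little, with a limma log2 fold change of 0.02 in Svil-Mut against WT. The share of Jph2 in the summed per-kilobase level of the pair was 65.7% to 68.6% in Svil-KO, 70.3% to 72.4% in Svil-Mut and 67.4% to 68.9% in WT, so the Svil-Mut libraries did not overlap the others in this share. That share was not tested.

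Trdn encodes triadin, which links calsequestrin to the release channel, and had 51351, 48582 and 43223 normalized counts in Svil-KO, 50673, 58478 and 59132 in Svil-Mut, and 52735, 53033 and 50394 in WT. Of the 3 Svil-KO libraries, replicates 3 and 4 lay below all WT and Svil-Mut libraries and replicate 1 did not, with limma log2 fold changes of -0.13 in Svil-KO against WT (adjusted p = 0.997) and -0.23 in Svil-KO against Svil-Mut (adjusted p = 0.405). Asph, whose transcripts include junctin and junctate, had 9194, 9137 and 8367 in Svil-KO, 10401, 11300 and 8832 in Svil-Mut, and 9980, 9582 and 10371 in WT. It was lower in every Svil-KO library than in WT, with a limma log2 fold change of -0.17 (adjusted p = 0.997). Sypl2, which encodes mitsugumin 29 of the triad membrane, was 15033, 15872 and 16365 in Svil-KO, 17821, 19012 and 13157 in Svil-Mut, and 14805, 14748 and 14797 in WT. The WT libraries lay unusually close together, and the Svil-KO libraries were all above them by a limma log2 fold change of 0.09 (adjusted p = 0.997).

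Read over the whole list, 3 of 31 members (9.68%) did not overlap between Svil-KO and WT, where 10.7% of all tested genes did not. These were Sypl2, higher in Svil-KO (the direction of 5.2% of all genes), and Asph and Orai1, lower in Svil-KO (5.45%). Between Svil-Mut and WT, 6 members (19.4%) did not overlap, against 13.9% of all genes. Of these, Cacng1, Ryr1, Fkbp1a, Atp2a1 and Calm2 were higher in Svil-Mut, the direction taken by 7.13% of all genes, and Itpr1 was lower, the direction of 6.81%. Between Svil-KO and Svil-Mut, 7 members (22.6%) did not overlap, against 15.2% of all genes, and all 7 were lower in Svil-KO, the direction of 7.66% of all genes. They were Cacng1, Ryr1, Fkbp1a, Tmem38a, Atp2a1, Pvalb and Calm2. Any pair of these comparisons shares the libraries of 1 genotype.

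The median log2 fold change of the 31 members was 0.0026 in Svil-KO against WT, beside 0.0031 over all tested genes. With libraries scaled to equal totals it became -0.013, beside -0.013 over all genes. It was 0.05 in Svil-Mut against WT, beside -0.0046 over all genes. Scaling to equal totals brought it to 0.021, beside -0.037 over all genes under the same scaling. A replicate block brought it to 0.025, and it ran between 0.031 and 0.084 without 1 library. In Svil-KO against Svil-Mut it was -0.06, beside 0.0089 over all genes. With equal totals it was -0.048, beside 0.025 over all genes, and with a replicate block it was 0.010. A positive log2 fold change was found for 16 of 31 members (51.6%) in Svil-KO against WT, where 50.6% of all genes had one. In Svil-Mut against WT it was found for 23 of 31 (74.2%), where 49.3% of all genes had one, and in Svil-KO against Svil-Mut for 11 of 31, where 51.4% did.

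**Figure D3:**
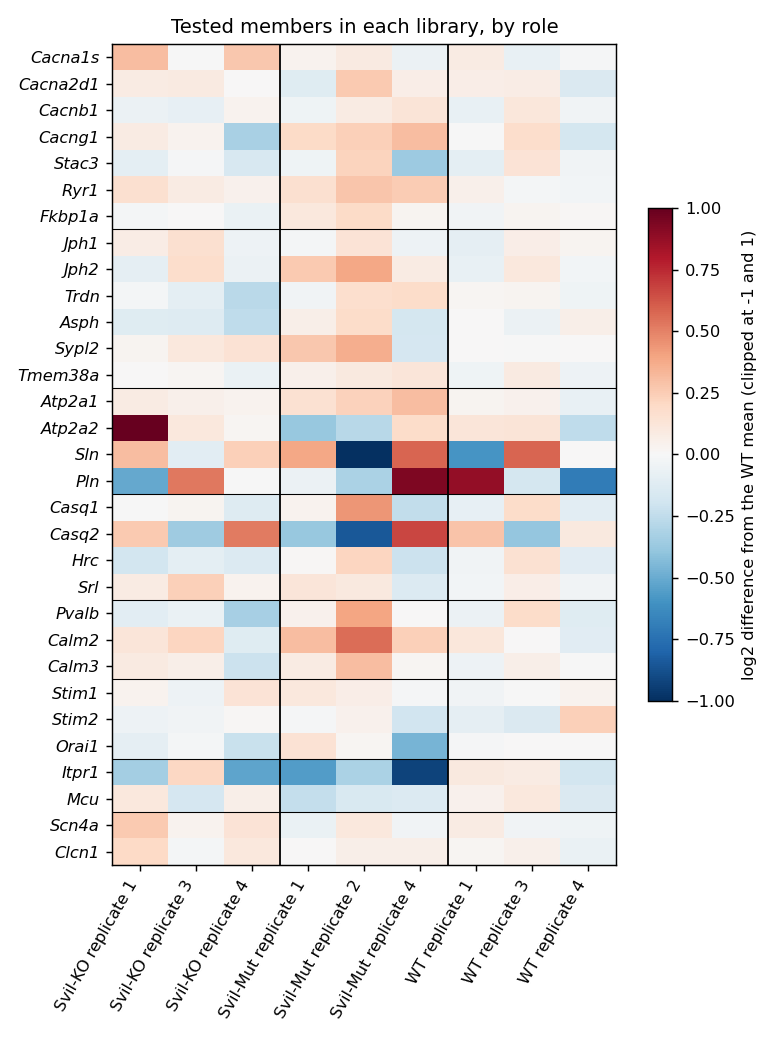
Log2 difference of each tested member from its WT mean in each of the 9 libraries (columns), by role (rows), with the colour scale clipped at -1 and 1. Svil-Mut columns are warm for Ryr1, Atp2a1 and Calm2 and cool for Itpr1, and the strongest colours are in Atp2a2, Sln, Pln, Itpr1 and Casq2.

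Atp2a1 was the most abundant member and ranked 3 among all genes in every library. It had 1485949, 1450838 and 1440217 normalized counts in Svil-KO, 1558363, 1650327 and 1736729 in Svil-Mut, and 1430058, 1448711 and 1335710 in WT. Every Svil-Mut library lay above every other library, and the mean was 17.3% higher in Svil-Mut than in WT. The limma log2 fold change was 0.23 ± 0.079 (SE) in Svil-Mut against WT (adjusted p = 0.394), 0.06 in Svil-KO against WT (adjusted p = 0.997) and -0.17 in Svil-KO against Svil-Mut (adjusted p = 0.49). As a share of all reads, Atp2a1 was 3.60% to 3.70% in Svil-KO, 3.87% to 4.45% in Svil-Mut and 3.39% to 3.72% in WT. The 10 most abundant genes together held 24.4% to 26.7% of reads in Svil-KO, 27.6% to 28.8% in Svil-Mut and 24.6% to 25.8% in WT. Transcripts of the mitochondrial genome held 5.87% to 6.56% in Svil-KO, 3.93% to 5.03% in Svil-Mut and 5.32% to 6.51% in WT. The part of this shift in composition in the differences of Ryr1, Atp2a1 and Calm2 was not tested beyond rescaling. With equal totals, their log2 fold changes in Svil-Mut against WT were 0.20, 0.20 and 0.34, beside a median of -0.037 over all tested genes. Exons of Atp2a1 meet those of Rabep2 on the other strand.

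**Figure D4:**
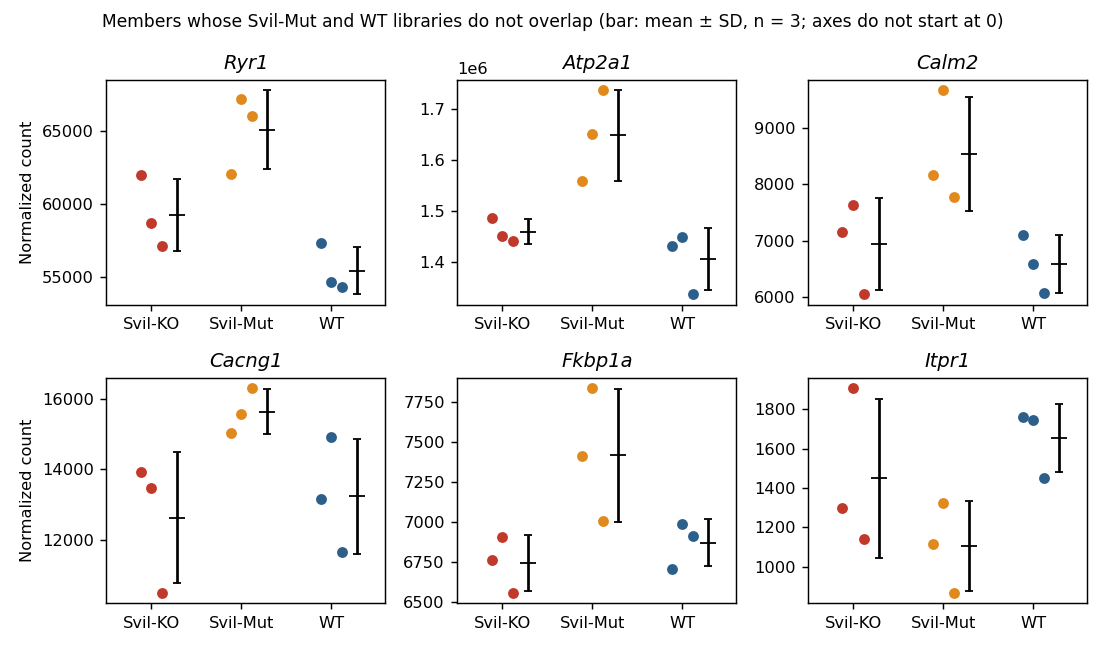
Normalized count of the 6 members whose Svil-Mut and WT libraries do not overlap, with 1 point per library and the mean ± SD (n = 3) beside it, on axes that do not start at 0. Svil-Mut points lie above WT for Ryr1, Atp2a1, Calm2, Cacng1 and Fkbp1a and below WT for Itpr1.

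The slow-fibre pump SERCA2, encoded by Atp2a2, had 4505, 1390 and 1309 normalized counts in Svil-KO, 992, 1065 and 1466 in Svil-Mut, and 1409, 1414 and 1083 in WT. Svil-KO replicate 1 stood far above every other library, and the rest overlapped. The limma log2 fold change in Svil-KO against WT was 0.64 ± 0.387 (SE, adjusted p = 0.997), and 0.06 without Svil-KO replicate 1. Against Svil-Mut it was 0.80 (adjusted p = 0.524), and 0.22 without that library. Per kilobase, Atp2a2 made up 0.173%, 0.0548% and 0.0520% of the summed level of both pumps in Svil-KO, 0.0364%, 0.0369% and 0.0482% in Svil-Mut, and 0.0563%, 0.0558% and 0.0463% in WT.

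Sln encodes sarcolipin and Pln phospholamban, small membrane proteins that inhibit SERCA. Sln had 250, 186 and 238 normalized counts in Svil-KO, 264, 47.7 and 302 in Svil-Mut, and 133, 302 and 202 in WT, and Svil-Mut replicate 2 was far below the rest. Pln was low throughout, at 19.8, 41.8 and 28.7 in Svil-KO, 27.5, 22.9 and 55.8 in Svil-Mut, and 53.6, 25.3 and 17.3 in WT, and its exons meet those of Cep85l. The 95% intervals of their log2 fold changes in Svil-Mut against WT ran from -1.66 to 0.94 for Sln and from -1.02 to 1.40 for Pln, too wide to place either gene.

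Of the storage proteins, Casq1 had 110327, 112902 and 101222 normalized counts in Svil-KO, 113159, 150273 and 93335 in Svil-Mut, and 104772, 125605 and 102890 in WT. Svil-Mut supplied both the highest and the lowest library, and limma gave a log2 fold change of 0.08 in Svil-Mut against WT (adjusted p = 0.914). Casq2, the calsequestrin of slow and cardiac muscle, had 3038, 1978 and 3640 in Svil-KO, 1947, 1412 and 4030 in Svil-Mut, and 3092, 1940 and 2718 in WT. It varied more within than between genotypes. Casq2 made up 1.23% to 2.5% of the per-kilobase sum of both calsequestrins in Svil-KO, 0.666% to 2.99% in Svil-Mut and 1.09% to 2.06% in WT. Hrc, a histidine-rich calcium-binding protein of the reticulum, and Srl, which encodes sarcalumenin, overlapped in every comparison, with limma log2 fold changes between -0.14 and 0.12.

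Calm2 showed the largest positive log2 fold change of the members in Svil-Mut against WT. It encodes calmodulin, a calcium sensor that binds the release channel, and lies at chr17:87433412-87446935, minus strand. Its normalized counts were 7158, 7638 and 6050 in Svil-KO, 8168, 9669 and 7765 in Svil-Mut, and 7106, 6586 and 6079 in WT. All Svil-Mut libraries lay above all others, with limma log2 fold changes of 0.37 ± 0.111 (SE) in Svil-Mut against WT (adjusted p = 0.33) and -0.30 in Svil-KO against Svil-Mut (adjusted p = 0.414). Calm3 had 8777, 8585 and 7124 in Svil-KO, 8726, 10253 and 8368 in Svil-Mut, and 7978, 8591 and 8232 in WT, which overlapped. The share of Calm2 in the per-kilobase sum of Calm2 and Calm3 was 57.4% to 59.5% in Svil-KO, 60.5% to 60.9% in Svil-Mut and 54.9% to 59.5% in WT. That share was not tested.

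Pvalb had 291910, 299742 and 249420 normalized counts in Svil-KO, 324774, 413890 and 315099 in Svil-Mut, and 301501, 356623 and 289270 in WT. All Svil-KO libraries lay below all Svil-Mut libraries and overlapped WT, with a limma log2 fold change of -0.32 ± 0.123 (SE) in Svil-KO against Svil-Mut (adjusted p = 0.427) and -0.17 in Svil-KO against WT (adjusted p = 0.997).

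Store-operated entry refills the cell when the reticulum is empty: Stim1 and Stim2 encode sensors in the reticulum and Orai1 the channel they open. Their limma log2 fold changes lay between -0.11 and 0.05 in all 3 comparisons. Stim1 was 6458 to 7385 normalized counts in Svil-KO, 6664 to 7235 in Svil-Mut and 6558 to 6878 in WT. Orai1 was 1809 to 2076 in Svil-KO, 1529 to 2334 in Svil-Mut and 2097 to 2120 in WT, so the Svil-KO libraries lay just below WT (limma log2 fold change -0.11, adjusted p = 0.997).

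Itpr1, the type 1 receptor for inositol trisphosphate, was the one member lower in all Svil-Mut libraries than in WT. It lies at chr6:108213096-108551109, plus strand. Its normalized counts were 1299, 1906 and 1141 in Svil-KO, 1118, 1324 and 869 in Svil-Mut, and 1762, 1745 and 1453 in WT, with means of 1448 ± 404 in Svil-KO, 1104 ± 228 in Svil-Mut and 1654 ± 174 in WT (SD, n = 3 each). Svil-KO overlapped both other genotypes. The limma log2 fold change in Svil-Mut against WT was -0.60 ± 0.200 (SE, adjusted p = 0.365). Smooth muscle also expresses Itpr1, and the summed normalized count of 4 smooth muscle markers was 5497 to 5948 in Svil-KO, 5637 to 6694 in Svil-Mut and 6012 to 6737 in WT. Their mean log2 level relative to the WT mean was -0.35 to 0.017 in Svil-KO, -0.18 to -0.080 in Svil-Mut and -0.030 to 0.034 in WT. By gene, the limma log2 fold change in Svil-Mut against WT was 0.10 for Acta2, 0.06 for Tagln, -0.34 for Myh11 and -0.30 for Cnn1. The part of smooth muscle in the Itpr1 difference was not tested. In whole muscle, fewer cells of a type and less RNA per cell cannot be told apart. Exons of Itpr1 meet those of Gm44101 and Gm44040 on the other strand. Mcu, the pore of the mitochondrial calcium uniporter, was 1940 to 2352 in Svil-KO, 1849 to 1987 in Svil-Mut and 1980 to 2344 in WT, a limma log2 fold change of -0.18 in Svil-Mut against WT (adjusted p = 0.614).

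Of the excitability channels, Scn4a, the sodium channel that carries the muscle action potential, had 14671, 12560 and 13467 normalized counts in Svil-KO, 11677, 13154 and 11938 in Svil-Mut, and 12948, 11916 and 11877 in WT. The limma log2 fold change in Svil-KO against WT was 0.15 ± 0.080 (SE, adjusted p = 0.997), and the genotypes overlapped. Clcn1, the chloride channel that steadies the resting membrane, overlapped in every comparison with log2 fold changes of 0.10 in Svil-KO against WT and 0.04 in Svil-Mut against WT.

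The most variable members are the slow pump, its small regulators and the slow calsequestrin. Each gene was therefore also set against a slow fibre marker level. That level is the mean log2 value of Myh7, Tnni1, Tnnc1, Tnnt1, Myl2 and Myl3 per library. Relative to the WT mean, this level was 2.39, -0.38 and -0.28 in Svil-KO, -0.83, -2.87 and -0.12 in Svil-Mut, and -0.24, 0.45 and -0.21 in WT. Svil-KO replicate 1 and Svil-Mut replicate 2 stood far from the rest in opposite directions. Myh7, the slow myosin, was 2476, 147 and 53.4 in Svil-KO, 136, 14.3 and 174 in Svil-Mut, and 79.9, 333 and 82.5 in WT.

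By limma over all 9 libraries, the slope of Atp2a2 on this level was 0.39 ± 0.084 (SE) log2 units per log2 unit and that of Sln was 0.44 ± 0.134 (SE), with adjusted p of 0.41 and 0.548. No member passed, and 4 had an unadjusted p under 0.05 (Atp2a2, Sln, Jph2 and Sypl2), where 7.13% of all genes did. Across all tested genes 0.0327% passed, 5 genes, of which 4 were markers that define the level. The size of both slopes varied with the libraries kept. Without both Svil-KO replicate 1 and Svil-Mut replicate 2 the slope was 0.36 for Atp2a2 and 0.28 for Sln, and neither passed (limma adjusted p = 0.979 and 0.998). Atp2a2 had a slope of 0.13 without Svil-KO replicate 1 and 0.65 without Svil-Mut replicate 2, and it passed in the fit without Svil-Mut replicate 2 (limma adjusted p = 0.0141). Sln had a slope of 0.77 without Svil-KO replicate 1 and 0.09 without Svil-Mut replicate 2. Of the other variable members, Casq2 had a slope of 0.20 (limma adjusted p = 0.701) and Pln one of -0.04 (limma adjusted p = 0.985). Without both outlying libraries these slopes were 0.08 and -0.09. Atp2a1 had a slope of -0.03 and Casq1 one of -0.07 over all 9 libraries.

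**Figure D5:**
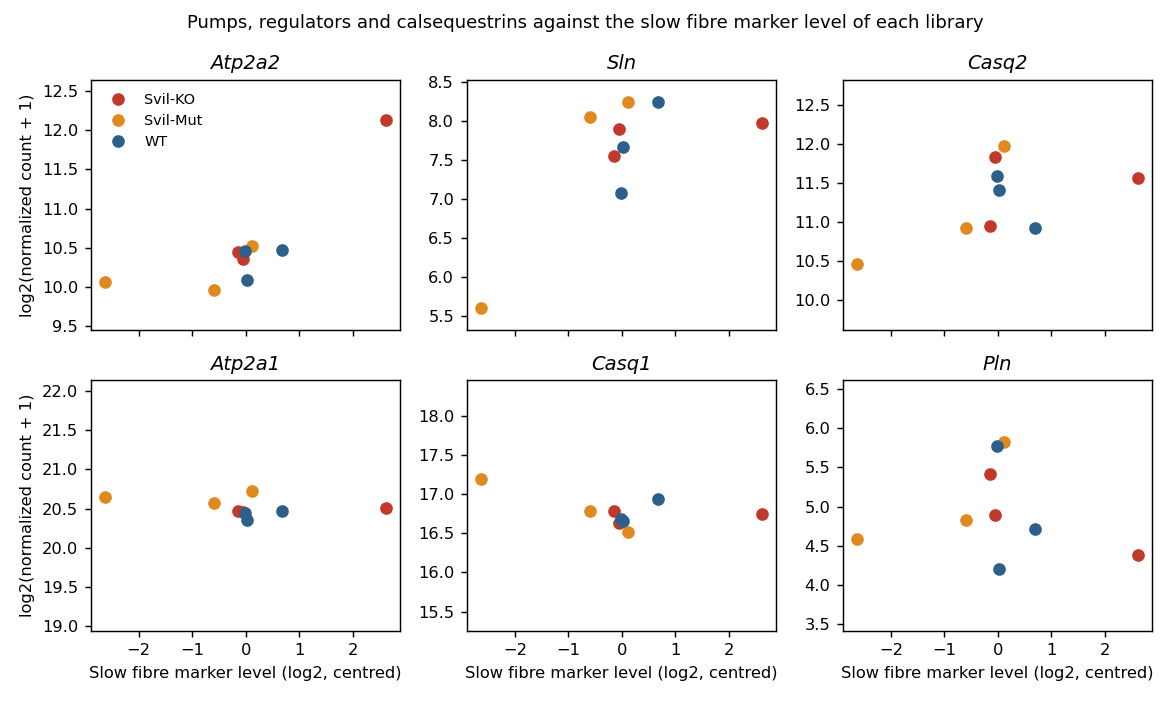
Log2(normalized count + 1) of the pumps, their regulators and the calsequestrins (vertical) against the slow fibre marker level of each library centred on the mean of all libraries (horizontal), with 1 point per library coloured by genotype. Svil-KO replicate 1 lies far to the right and highest for Atp2a2, and Svil-Mut replicate 2 lies far to the left and lowest for Sln and Casq2.

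Beyond these members, 90 other genes of calcium handling and excitability were listed, 83 of which passed the filter. None passed by limma in any comparison. At an unadjusted p under 0.05 there were 5 (6.02%) in Svil-KO against WT, 2 higher and 3 lower. Of all 15279 tested genes 4.11% passed, 360 higher and 268 lower. There were 8 (9.64%) in Svil-Mut against WT, 6 higher and 2 lower, where 10% of all genes passed, 720 higher and 813 lower. There were 17 (20.5%) in Svil-KO against Svil-Mut, 5 higher and 12 lower, where 10.2% of all genes passed, 842 higher and 714 lower. Libraries did not overlap for 10 (12%), 13 (15.7%) and 20 (24.1%) of the 83 in the same order, beside the shares of 10.7%, 13.9% and 15.2% over all genes. edgeR called none of them, and DESeq2 called Kcnc4 in Svil-Mut against WT and Calr in Svil-KO against Svil-Mut.

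Kcnc4, a voltage-gated potassium channel gene, had 6144, 5421 and 5350 normalized counts in Svil-KO, 6036, 7033 and 9021 in Svil-Mut, and 5626, 4856 and 4962 in WT. Svil-Mut lay above WT in every library, with a limma log2 fold change of 0.50 (adjusted p = 0.283) and a DESeq2 adjusted p of 0.0307. Gem, a small GTPase that inhibits voltage-gated calcium channels, had 68.2, 48.9 and 38.3 in Svil-KO, 213, 180 and 98.4 in Svil-Mut, and 88.6, 19.2 and 48.9 in WT. All Svil-Mut libraries lay above all others, by a limma log2 fold change of 1.80 against WT (adjusted p = 0.325).

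Calr encodes calreticulin, a calcium-binding chaperone of the reticulum, and had 4888, 4993 and 5023 normalized counts in Svil-KO, 5842, 6329 and 7257 in Svil-Mut, and 5645, 5430 and 4976 in WT. Svil-KO lay below Svil-Mut in every library, with a limma log2 fold change of -0.38 (adjusted p = 0.219) and a DESeq2 adjusted p of 0.013. Rcan2, a regulator of the phosphatase calcineurin, had a limma log2 fold change of 0.60 in Svil-KO against Svil-Mut (adjusted p = 0.323). In Svil-KO against WT the smallest unadjusted p belonged to Fxyd1, a regulator of the sodium pump, with a limma log2 fold change of -0.22 (adjusted p = 0.997). Cacnb2, a calcium channel beta subunit of low level, had 40.7, 61.1 and 51 in Svil-KO, 25.5, 12.4 and 0 in Svil-Mut, and 15.3, 13.2 and 2.04 in WT (limma log2 fold change 2.53 in Svil-KO against WT, adjusted p = 0.997).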

How the data were processed

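RNA of 9 tibialis anterior muscles was measured, 3 per genotype, from oligo(dT)-primed, amplified full-length cDNA that was tagmented, a kit that does not mark strand, per the labels' protocols. The authors used HISAT2, featureCounts and DESeq2 on mm10, per the submitters' processing notes, with versions and settings not given in the sources used here. Each deposited value is a signal, a read count over the size factor of its library. In every library 100% of values above 0 were multiples of 1 step within 0.001, so whole reads were recovered.

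Genes with a value of 10 in at least 3 libraries were tested with limma on log2(value + 1), with a variance trend, a genotype term, 1 fit of all 9 libraries and Benjamini-Hochberg adjustment over all tested genes; calls were made at 0.05. The added 1 shrinks differences between low values, and limma fold changes of low genes can lie above or below those of edgeR and DESeq2. Levels were divided by exon length (GENCODE M21, GRCm38), which need not be the annotation counted on. Of 32 members, 13 have exons that meet another gene's.

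Members, marker lists and other pathway genes were chosen with earlier results of these data known. Named with values are the 5 members and 3 other pathway genes with the smallest unadjusted p in each comparison, 2 of which are not reported here, and the isoform pairs; members whose libraries do not overlap were named after their values were seen. Replicates are from separate mice and no pair of libraries was a duplicate. Software was Python 3.11.15 with matplotlib 3.10.9, and R 4.3.3 with DESeq2 1.42.0, edgeR 4.0.16 and limma 3.58.1. The fits were tested on simulated data.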

Additional observations from a re-analysis of the deposited data

Results flagged for a closer look

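The effect of the 2 genotypes on Svil differed: its log2 difference against WT was 0.67 higher in Svil-KO than in Svil-Mut (SE 0.086, limma adjusted p = 0.0261), with means of 6934 ± 407 normalized counts in Svil-KO, 4379 ± 381 in Svil-Mut and 8822 ± 497 in WT (SD, n = 3 each). The call was lost in 9 of 24 alternatives, where the difference ran from 0.58 to 0.69.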

How the results depend on the processing

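Of 1270 values under 24 alternatives per comparison, 1222 were counted as the same. For single genes this meant the same direction and side of the threshold, and for counts of genes a similar count. With few genes called, a fold change could move far and still count as the same. The Atp2a2 log2 fold change in Svil-KO against WT did so in all 24 alternatives while running from 0.062 to 0.95. For the members' median it meant a move of less than 0.049, the pooled SD between replicates, so a median near 0 could change sign. With limma, no member was called in any genotype comparison under any alternative. DESeq2 called 1 member (Ryr1) in Svil-Mut against WT, and 1 other pathway gene there and 1 in Svil-KO against Svil-Mut. Over all genes it called 4 in Svil-KO against WT, 172 in Svil-Mut against WT and 212 in Svil-KO against Svil-Mut. In Svil-Mut against WT, 19 genes passed with a pseudocount of 10, 16 with a mean of at least 50, 16 with robust estimation, 14 with only those genotypes fitted and 20 at an adjusted p of 0.10 (19 in Svil-KO against Svil-Mut). Leaving out 1 library gave 4 to 18 genes in Svil-Mut against WT (17 when Svil-KO replicate 1 was dropped, 12 for Svil-KO replicate 3, and 18 and 13 for Svil-Mut replicates 1 and 4) and 4 to 13 in Svil-KO against Svil-Mut (13 when Svil-KO replicate 1 was dropped and 4 for Svil-KO replicate 4). The members' median in Svil-KO against Svil-Mut ran between -0.11 and -0.011 without 1 library (-0.011 without Svil-Mut replicate 2). Same-numbered libraries deviated together only weakly (r between -0.0556 and 0.0444), and pairs of different number had r between -0.0387 and 0.0613. Among the WT libraries, each Svil-KO library correlated best with that of its own number, a hint from the data and not the design. Svil-KO replicate 1 correlated more with Svil-Mut replicate 2 (r = 0.0286) than with WT replicate 1 (r = 0.0260). With the replicate block 0 genes passed in Svil-KO against WT, 7 in Svil-Mut against WT and 6 in Svil-KO against Svil-Mut. In the last of these the members' median was 0.010. The Sln log2 fold change with the block was 0.57 in Svil-Mut against WT and -0.42 in Svil-KO against Svil-Mut. Replicate number 2 occurs only in Svil-Mut, so the block term takes up Svil-Mut replicate 2 and leaves it out of the genotype comparisons. With that library dropped and no block, the Sln values were 0.49 and -0.34 in the same order. Without 1 library, Casq2 ran between -0.052 and 0.39 (Svil-KO against WT), -0.61 and 0.14 (Svil-Mut against WT), and -0.0022 and 0.75 (Svil-KO against Svil-Mut), and Sln between -0.15 and 0.44, -0.83 and 0.49, and -0.34 and 0.98 in the same order. Genes related to the slow fibre level numbered 1 without the outlying pair of libraries, 2 without a trend, and 3 to 60 without 1 library (60 without Svil-KO replicate 1), with 0 to 1 members. Quantile normalization gave no value for Atp2a1, which has the same rank in every library. Intervals cover the spread of 3 mice per genotype.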
